A study of Mus musculus with 92 samples.

Results

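The hormone genes of enteroendocrine cells were followed across mouse intestine and its cultures (adult organoids and fetal spheroids) with and without deletion of Eif4g2, which encodes a translation initiation factor, and across organoids given the acetyltransferase inhibitor A-485. The genes were taken by name from the raw count tables: Cck, Gcg, Gip, Sct, Ghrl, Sst, Pyy, Nts, Tac1 and Tph1, which are 10 of the 54532 genes listed there. All 10 were found, each as a single protein-coding entry. The rule that names them uses no measured value, though earlier results of these data were known when it was set. The study asks what eIF4G2 does for intestinal stem cell maintenance and differentiation.

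Enteroendocrine cells are rare, scattered hormone-secreting cells of the gut epithelium that arise in the crypts from progenitors expressing Neurog3 and move up onto the villi. Each cell makes a few hormones out of a larger repertoire, the mixture varies along the gut, and a cell can change its main hormone as it leaves the crypt. Peptide hormones are cut from larger precursors, packed into dense granules and released when receptors on the cell sense nutrients.

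The genes fall into groups by what they encode. Cck (ENSMUSG00000032532, chr9:121489824-121495694, minus strand) encodes cholecystokinin, which drives gallbladder contraction and pancreatic secretion. Gip (ENSMUSG00000014351, chr11:96024545-96030831, plus strand) encodes an incretin that raises insulin release after a meal, and Sct (ENSMUSG00000038580, chr7:141278330-141279133, minus strand) encodes secretin, which drives bicarbonate secretion. Ghrl (ENSMUSG00000064177, chr6:113716119-113719880, minus strand) encodes ghrelin, which stimulates appetite, and Sst (ENSMUSG00000004366, chr16:23889573-23890958, minus strand) encodes somatostatin, which inhibits the release of many other hormones. Gcg (ENSMUSG00000000394, chr2:62474530-62483650, minus strand) is processed in the gut to glucagon-like peptides, and Pyy (ENSMUSG00000017311, chr11:102106676-102107832, minus strand) encodes the satiety peptide YY. Nts (ENSMUSG00000019890, chr10:102481756-102490486, minus strand) encodes neurotensin. Tac1 (ENSMUSG00000061762, chr6:7554879-7565834, plus strand) encodes substance P and Tph1 (ENSMUSG00000040046, chr7:46644641-46672537, minus strand) the rate-limiting enzyme of peripheral serotonin synthesis, both used by enterochromaffin cells. Coordinates of genes are those of the count tables, in GRCm38.

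Stretches upstream of the start sites are shown because organoids below were given an inhibitor of p300 and CBP, and CBP is known as a partner of the factor that binds cAMP response elements. They cover genes with such an element near the start (Sst, Tac1, Tph1 and Cck) and genes without one in the same stretch (Gip, Gcg and Sct). Each stretch runs back from the first RefSeq start site in GRCm38.p6 and is read 5′ to 3′ on the gene's strand, over 100 bases, or over the 30 bases from 60 to 31 before the start for Sst and Tac1, where the count table's gene model reaches past the RefSeq start. Capitals mark TGACG on either strand, the shorter cAMP response element, its extension to the full TGACGTCA, and the TATA box motif TATAAA on either strand.
Sst, chr16:23890875-23890904, minus strand: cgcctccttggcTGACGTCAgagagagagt
Tac1, chr6:7555001-7555030, plus strand: acgtggctctacaggctCGTCAcgcctgag
Tph1, chr7:46672538-46672637, minus strand: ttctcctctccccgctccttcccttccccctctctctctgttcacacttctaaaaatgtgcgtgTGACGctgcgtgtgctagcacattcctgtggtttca
Cck, chr9:121495695-121495794, minus strand: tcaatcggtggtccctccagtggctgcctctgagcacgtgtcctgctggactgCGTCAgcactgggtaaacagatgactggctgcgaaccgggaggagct
Gip, chr11:96024445-96024544, plus strand: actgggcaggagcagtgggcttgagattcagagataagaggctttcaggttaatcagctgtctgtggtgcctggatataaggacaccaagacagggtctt
Gcg, chr2:62483654-62483753, minus strand: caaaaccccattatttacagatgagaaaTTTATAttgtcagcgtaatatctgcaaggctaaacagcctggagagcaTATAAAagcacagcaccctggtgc
Sct, chr7:141279134-141279233, minus strand: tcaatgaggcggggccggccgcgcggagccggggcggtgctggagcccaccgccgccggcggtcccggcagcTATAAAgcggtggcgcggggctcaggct

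All 10 genes had a RefSeq window of 300 bases, reaching from 250 before to 50 after a start. Ghrl had 4 windows, and Pyy and Tph1 had 2 each. A match in any window counted for the gene, so counts of genes are not on the scale of the shares of windows. The full element TGACGTCA occurred in 1 of the 10 genes, Sst, where it begins 48 bases before the start, and in 1.79% of all 32851 windows. The shorter element TGACG, which the full element contains, occurred in Sst, Tph1, Cck, Tac1 and Nts, and in 20.8% of all windows. In Tph1, Cck and Tac1 a copy lay 36, 47 and 43 bases before the start. TATAAA occurred in Gcg and Sct, at 24 and 28 bases before the start, and in 13.6% of all windows. Gip held none of these motifs. The E-box CAGATG occurred in 5 of the 10 genes, namely Cck, Gcg, Sct, Ghrl and Tac1, and in 17.2% of all windows. In Ghrl it lay in windows 3 and 4 only, after the start. TAATTA occurred in Tac1 and Tph1, in Tph1 in window 2 only, and in 5.29% of all windows. These are matches of letters in a short window, not binding sites.

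The data are poly(A) RNA-seq counts from 92 libraries in 21 groups. Crypts and villi were taken from mice with tamoxifen-activated Cre recombinase. One set carried Rosa26(CreER), which is active in most cell types, with Eif4g2(flox/flox) (homozygous, 4 crypt and 5 villi libraries) or Eif4g2(flox/+) (heterozygous, 5 and 5), all given tamoxifen and labelled Day 9. The other set carried Vil1(CreER), which confines the deletion to intestinal epithelium, with Eif4g2(flox/flox) (3 crypt and 6 villi libraries) or Eif4g2(flox/+) (4 and 4). All of these mice were given tamoxifen at 100 mg per kg for 4 days and labelled 3 Months. Heterozygous mice also lose 1 allele, so no tissue group has a full gene dose. Adult small intestinal organoids, which are epithelial cultures grown from crypts, carried Rosa26(CreER) and were kept in ENR medium. The first organoid set held 3 Eif4g2(flox/flox) lines treated for 24 hours with DMSO or with 0.5 µM 4-hydroxytamoxifen (4-OHT), which activates CreER, and read at Day 6. The second held 4 lines each of Eif4g2(flox/flox), Eif4g2(flox/+) and Eif4g2(+/+), all given 0.5 µM 4-OHT for 24 hours and read at Day 6. The A-485 set held 4 lines without 4-OHT, 1 Eif4g2(+/+) and 3 Eif4g2(flox/flox), each with DMSO, 3, 5 or 10 µM A-485 for 4 days. Fetal intestinal spheroids were 6 Eif4g2(flox/flox) and 5 Eif4g2(flox/+) lines carrying Rosa26(CreER), each with DMSO and with 4-OHT. They were kept in ENR medium, treated for 24 hours with DMSO or 0.5 µM 4-OHT and read at Day 6.

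Library totals ran from 8652040 to 37611126 counted reads. Levels below are CPM, which are read counts scaled to library size by the TMM method within a set, and a gene is called higher or lower at an adjusted p under 0.05 in edgeR's quasi-likelihood test over all genes that passed a low-count filter. Eif4g2 itself followed the labels: it lay at 67.9 to 98.3 CPM in homozygous and 337 to 357 CPM in heterozygous Rosa26 crypts, and at 231 to 239.8 and 437 to 488 CPM in Vil1 crypts. In villi, homozygous first, it lay at 48.3 to 61.7 and 318.7 to 384 CPM with Rosa26 and at 134 to 182.1 and 357.1 to 474.8 CPM with Vil1. In the second organoid set it lay at 220.1 to 269.8 CPM in flox/flox, 790.3 to 834 in flox/+ and 1257 to 1335 in +/+ lines. The enteric glial marker Sox10 was at 0 reads in all 21 groups. Mast cells, which also express Tph1, were followed by 10 markers. In organoids and spheroids Cpa3 was at 0 reads in every group while the list as a whole was not, with sums of 22.6 to 27.3 CPM in the DMSO controls of the first organoid set and 6.22 to 8.93 CPM with 4-OHT, and there Kit was called lower and Mcpt2 and Mcpt4 higher. Replicates were separate animals or separately named culture lines. In bulk RNA, fewer hormone-producing cells and less hormone RNA per cell cannot be told apart.

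In crypts of Rosa26 mice all 10 hormone genes were lower in homozygotes than in heterozygotes, against 11.6% of all tested genes called lower. The falls ran from -1.41 (Sct) to -3.13 (Gcg) on the log2 scale, with a median of -2.07, and for each of the 10 genes every homozygous library lay below every heterozygous one. Gcg stood at 15.0, 23.6, 23.6, 34.3 and 44.9 CPM in the heterozygous libraries and at 0.822, 2.69, 3.08 and 5.93 CPM in the homozygous ones. Its fitted log2 change was -3.13 ± 0.52 (SE), with an adjusted p of 0.0041. Gip, the most abundant of the 10 per kilobase, stood at 44.4, 56.0, 57.1, 66.9 and 83.3 CPM against 5.63, 8.84, 14.6 and 30.5 CPM, a log2 change of -2.02 ± 0.43 (adjusted p = 0.012). The lowest heterozygous Gip library was thus above the highest homozygous one, and the homozygous libraries were the more spread. Sst, the inhibitory hormone, stood at 25.7, 31.7, 32.4, 37.2 and 43.2 CPM against 2.32, 3.65, 5.27 and 9.29 CPM, a log2 change of -2.69 ± 0.35 (adjusted p = 0.0014).

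The enterochromaffin genes fell in the same crypts. Tac1 stood at 12.6, 12.8, 15.2, 15.3 and 17.4 CPM in heterozygotes and 2.07, 2.90, 3.25 and 4.87 CPM in homozygotes, a log2 change of -2.12 ± 0.22 with the smallest adjusted p of the 10 (5.86e-04). Tph1 stood at 11.2, 12.0, 14.3, 16.0 and 18.03 against 1.41, 1.80, 2.65 and 6.39 CPM (-2.19 ± 0.41, adjusted p = 0.0067). Heterozygous levels of both were close together. The homozygous library of replicate 5 (animal 6952) was the highest of its group for both, and for 7 of the 10 genes. The 10 mast cell markers summed to 31.6 to 58.0 CPM in homozygotes and 57.3 to 107 CPM in heterozygotes. Of 7 tested, Kit alone was called, and it was lower (-1.43 ± 0.12). The other tested markers had positive log2 changes that did not pass, and the list median was 0.92. The part of mast cells in Tph1 was not tested.
Cck stood at 20.8, 21.6, 23.1, 28.6 and 29.9 against 2.86, 3.75, 6.30 and 13.9 CPM, with a log2 change of -1.86 ± 0.40. Sct stood at 7.21, 9.46, 9.68, 10.8 and 11.3 against 2.65, 3.08, 3.37 and 5.00 CPM (-1.41 ± 0.22, adjusted p = 0.0032). Both had reads in every homozygous library, as did all the other hormone genes but Nts. The low-abundance genes Ghrl (1.48, 1.94, 2.05, 2.12 and 3.21 against 0.348, 0.354, 0.460 and 0.940 CPM) and Pyy (1.30, 1.64, 1.74, 2.97 and 3.47 against 0.494, 0.498, 0.526 and 0.646 CPM) changed by -1.99 ± 0.37 and -1.97 ± 0.35. Nts was the least certain: it stood at 1.77, 3.45, 4.31, 6.19 and 7.16 against 0, 0.479, 0.987 and 1.15 CPM, with a log2 change of -2.73 ± 0.83 and an adjusted p of 0.046, and 8 of the 9 fits that each left out 1 library no longer called it.

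Other quantities moved with genotype in these crypts. Mitochondrial transcripts took 13.7% to 25.2% of counts in homozygotes and 6.24% to 12.4% in heterozygotes. The 7 goblet cell markers summed to 1983 to 4987 against 5728 to 10208 CPM, the 8 tuft cell markers to 14.2 to 30.9 against 76.1 to 153 CPM, and the 9 stroma and 7 leukocyte markers reached 2282 and 1685 CPM in homozygous replicate 4. Their part in the hormone changes was not tested. In fits that each left out 1 library, homozygous replicate 4 among them, 9 to 10 hormone genes were called. With a Y-linked transcript as a covariate, since sex overlaps genotype in these mice, 6 of the 10 were called lower and all 10 kept their direction. The 4 that lost the call, Gip, Sct, Ghrl and Pyy, had adjusted p of 0.0546 to 0.0752. With the covariate the log2 change moved to -5.02 for Gcg, -3.03 for Cck, -10.47 for Nts and -0.87 for Sct.

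In villi of Rosa26 mice 8 of the 9 tested hormone genes were lower in homozygotes, against 18.2% of all tested genes. Without the low-count filter 4 of these calls remained, and Cck, Gcg, Sst and Tph1 had adjusted p of 0.0558 to 0.0851. Nts changed most. It stood at 10.4, 16.3, 16.7, 24.6 and 25.2 CPM in heterozygotes and at 0, 0.0456, 0.0859, 0.0925 and 4.64 CPM in homozygotes, a log2 change of -4.22 ± 1.08 (adjusted p = 0.015). In 4 of the 5 homozygous libraries Nts was under 0.1 CPM, while replicate 5, again animal 6952, stood apart. Without that library the log2 change was -8.25 for Nts and -3.48 for Gcg. It was the highest of its group for 9 of the 10 genes, among them Cck (3.71, 7.67, 11.1, 27.6 and 61.2 CPM in the homozygous libraries against 94.5, 106, 115, 126 and 146 in heterozygous ones) and Gip (8.64, 9.49, 12.6, 41.2 and 81.8 against 128, 139, 147, 171 and 240.2 CPM). Cck changed by -2.44 ± 0.66 and Gip by -2.47 ± 0.65 on the log2 scale, with adjusted p of 0.019 and 0.016. Even this highest library lay below the lowest heterozygous one for both genes.

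Sct, which is abundant in villi, stood at 53.5, 57.6, 60.96, 76.2 and 90.6 CPM against 8.54, 14.6, 16.0, 18.4 and 39.2 CPM and had the smallest adjusted p in the villi (-1.85 ± 0.36, adjusted p = 0.0039). Ghrl changed by -2.22 ± 0.53, Tph1 by -2.31 ± 0.64, Gcg by -2.16 ± 0.67 and Sst by -2.0 ± 0.58. The calls of Gcg and Sst were lost in 6 and 2 of 10 fits that each left out 1 library, with adjusted p up to 0.064 and 0.055. Pyy was the exception: its homozygous libraries at 0.684, 1.54, 2.49, 5.09 and 6.84 CPM spanned its heterozygous ones at 2.78, 3.76, 4.03, 4.58 and 5.75 CPM, and its log2 change of -0.37 ± 0.50 did not pass (adjusted p = 0.606). With the Y-linked covariate the villi kept all 8 calls, with larger changes, such as -4.03 for Cck, -4.01 for Gip and -8.56 for Nts. Tac1 was too low in villi to be tested, at 0.223 to 1.11 and 0.231 to 0.561 CPM. The 7 goblet markers summed to 2312 to 11741 CPM in homozygotes and 7419 to 17729.6 CPM in heterozygotes, and the 8 tuft markers to 19.0 to 63.6 and 76.3 to 402 CPM. The 10 mast cell markers summed to 4.76 to 6.66 and 7.96 to 18 CPM, and of 3 tested Kit alone was called, lower (-1.29 ± 0.30). The part of these in the result was not tested. No hormone gene had a genotype effect that differed between villi and crypts of Rosa26 mice in the edgeR interaction test, where 4.86% of all genes were called lower. There 2 of the 10 had an unadjusted p under 0.05 and DESeq2 called 1.

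**Figure D1:**
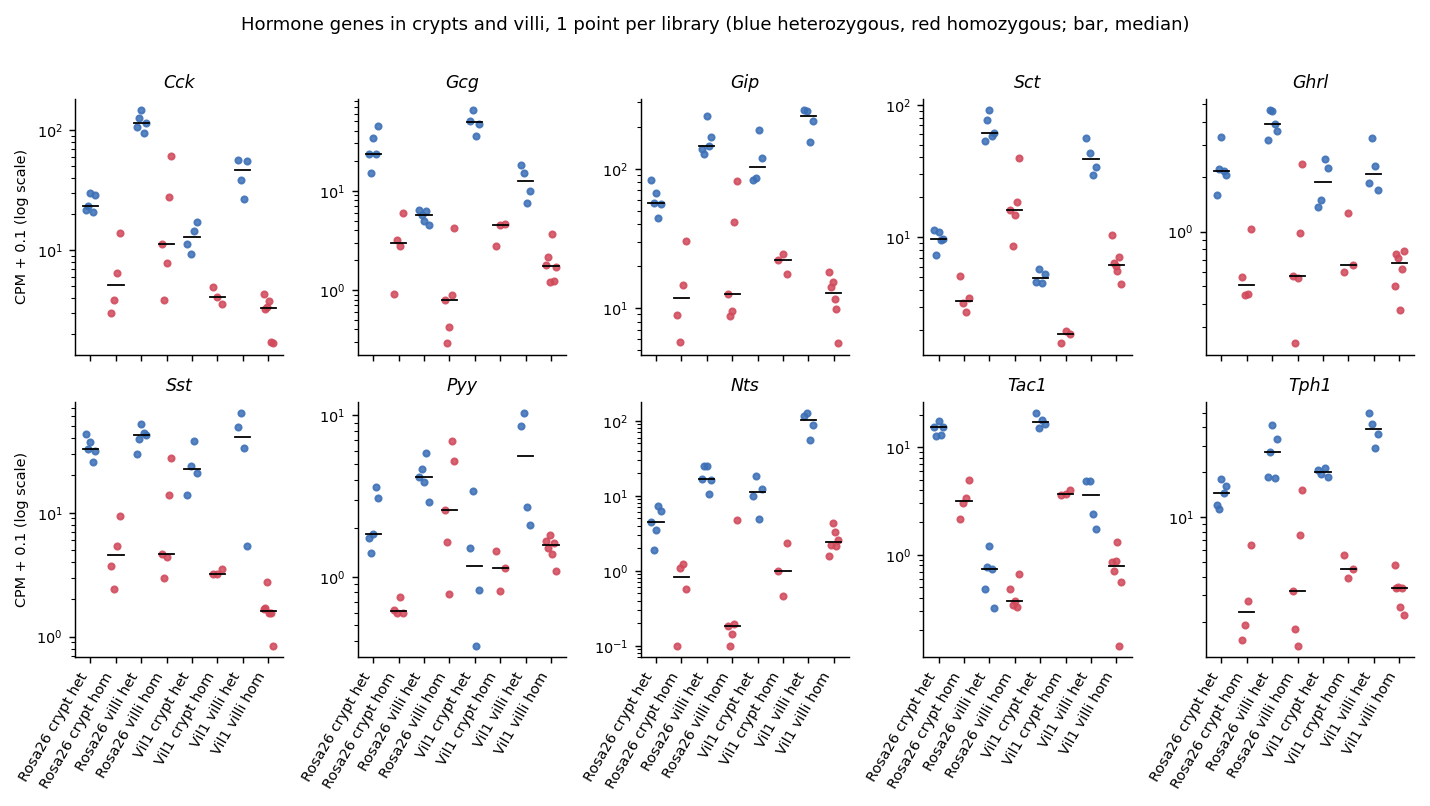
Levels of the 10 hormone genes in crypts and villi as CPM plus 0.1 on a log axis, with 1 point per library, heterozygous libraries in blue, homozygous in red and a bar at the group median. Homozygous points lie below heterozygous ones in most pairs of columns, and the 2 genotypes overlap for Pyy in Rosa26 villi and Vil1 crypts and for Tac1 in Rosa26 villi.

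In Vil1 mice, where the deletion is confined to epithelium, 8 of 10 hormone genes were lower in homozygous crypts (17.7% of all tested genes) and all 10 in homozygous villi (21.6%). In crypts Gcg again changed most. It stood at 35.3, 47.3, 50.2 and 64.5 CPM in heterozygotes and 2.64, 4.46 and 4.54 CPM in homozygotes (-3.66 ± 0.28, adjusted p = 2.12e-04). Tac1 stood at 15.0, 16.2, 17.6 and 20.5 against 3.49, 3.6 and 3.92 CPM (-2.23 ± 0.14, adjusted p = 5.59e-05), and Tph1 at 18.4, 19.3, 20.5 and 21.3 against 3.84, 4.41 and 5.52 CPM (-2.12 ± 0.15). Replicates of these enterochromaffin genes were close together within both genotypes. Gip stood at 83.4, 85.4, 119 and 190.5 against 17.5, 22.2 and 24.4 CPM (-2.48 ± 0.35), and Sst at 13.8, 20.9, 23.7 and 37.6 against 3.10, 3.12 and 3.43 CPM (-2.89 ± 0.34). Cck changed by -1.65 ± 0.24, Sct by -1.52 ± 0.19 and Nts by -3.29 ± 0.73. The Nts call was lost without homozygous replicate 1 (adjusted p = 0.075). Ghrl narrowly missed the threshold at -1.25 ± 0.41 (adjusted p = 0.052), although its 2 groups did not overlap. Pyy overlapped, at 0.274, 0.723, 1.40 and 3.29 against 0.715, 1.04 and 1.34 CPM, with a 95% interval of the log2 change of -1.92 to 0.97.

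In Vil1 villi all 10 falls were as large as or larger than -2.05 (Pyy) on the log2 scale, with a median of -3.21 against 0.05 over all tested genes. Nts stood at 56.1, 87.7, 116 and 126 CPM in heterozygotes and ran from 1.48 through a median of 2.31 to 4.24 CPM in the 6 homozygous libraries (-5.22 ± 0.29, adjusted p = 1.17e-07). Gip stood at 156, 219, 262 and 263 CPM and ran from 5.52 through a median of 12.8 to 18.1 CPM (-4.20 ± 0.28, adjusted p = 4.09e-07). Cck stood at 26.6, 38.0, 54.8 and 55.8 CPM and ran from 1.58 through a median of 3.21 to 4.16 CPM (-3.93 ± 0.29). In each case the lowest heterozygous library was several times the highest homozygous one. Sst varied among heterozygotes, at 5.33, 33.1, 48.8 and 63.5 CPM, and ran from 0.745 through a median of 1.51 to 2.67 CPM in homozygotes (-4.60 ± 0.58). Tph1 changed by -3.65 ± 0.21, Gcg by -2.76 ± 0.33, Sct by -2.66 ± 0.22, Tac1 by -2.37 ± 0.51, Ghrl by -2.06 ± 0.34 and Pyy by -2.05 ± 0.41. All 10 calls were kept in every fit that left out 1 library.

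The genotype effect was larger in villi than in crypts of Vil1 mice for 4 of the 10 hormone genes, against 6.14% of all tested genes with a more negative effect in villi. The difference of log2 changes was -2.26 ± 0.42 for Cck (adjusted p = 0.0035), -1.51 ± 0.29 for Tph1 (0.0038), -1.70 ± 0.44 for Gip (0.018) and -1.12 ± 0.33 for Sct (0.032). Of 17 fits that each left out 1 library, 1 lost the call of Gip and 6 that of Sct. With the animal as a block, since crypts and villi came from the same mice, Gip (-1.54, adjusted p = 0.069) and Sct (-0.96, 0.085) were no longer called. Nts was then called, at -2.01 (0.023), and so was Gcg, with the opposite sign (1.33, 0.016), which is a smaller fall in villi. Eif4g2 itself changed by -0.99 ± 0.08 in crypts and by -1.37 ± 0.12 in villi of these mice, a difference that did not pass (-0.36 ± 0.17, adjusted p = 0.151). Mitochondrial transcripts took 30.4% to 40.3% of counts in homozygous and 17.5% to 30.8% in heterozygous crypts. Goblet markers summed to 1602 to 2766 against 9452 to 15007 CPM and tuft markers to 4.67 to 8.64 against 99.9 to 147 CPM in villi. Mast cell markers summed to 88.2 to 176 against 38.6 to 110.4 CPM in crypts and to 3.90 to 14.3 against 14.2 to 20.0 CPM in villi. The 7 leukocyte markers summed to 406 to 527 against 62.3 to 515 CPM in crypts and to 47.9 to 189 against 202 to 347 CPM in villi. The part of these in the result was not tested.

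Genes that make and release the hormones were lower too. In Rosa26 villi 14 of 19 tested genes of peptide processing and secretory granules were lower, against 18.2% of all genes. In Vil1 crypts it was 16 of 20, against 17.7%. In Rosa26 homozygous crypts 18 of 21 were lower, against 11.6% of all tested genes. The list median there was -2.13 against 0.04 over all tested genes. The largest falls were in Rab3c, a granule docking GTPase, at 0.445 ± 0.523 against 4.24 ± 1.24 CPM (mean ± SD, n = 4 and 5), with a log2 change of -3.19 ± 0.66 (SE; adjusted p = 0.011), and in the calcium sensor Scgn (-2.89 ± 0.45). In Vil1 villi 19 of 20 were lower, against 21.6% of all genes, with a median of -3.32. Scgn (-5.08 ± 0.42) and the exocytosis protein Snap25 (-4.16 ± 0.42) led. The remaining called gene of that list, the amidating enzyme Pam, was higher in Vil1 villi, at 65.7 ± 9.14 against 23.0 ± 5.49 CPM (1.49 ± 0.16, adjusted p = 1.03e-05), and in Rosa26 villi (0.82 ± 0.17).
Of 23 enteroendocrine transcription factors, 13 were lower in Rosa26 crypts (11.6% of all tested genes) and 19 in Vil1 crypts (17.7%). In the latter 1, Foxa1, was higher. In villi 4 of 16 tested were lower with Rosa26, near the 18.2% of all genes, and 14 of 19 with Vil1 (21.6%). Foxa1 was higher in the villi of both mouse sets. Neurod1, a factor of early endocrine progenitors, changed by -1.86 ± 0.34 in Rosa26 crypts and by -3.91 ± 0.31 in Vil1 villi, and Lmx1a, a factor of the serotonin lineage, by -3.02 ± 0.42 in Vil1 crypts. Of 8 tested nutrient and bile acid receptors of these cells, 7 were lower in the villi of each mouse set. Among all genes the shares there were 18.2% with Rosa26 and 21.6% with Vil1. Of 9 receptors tested in crypts 3 were lower with Rosa26 (11.6% of all genes) and 5 with Vil1 (17.7%). The irritant channel Trpa1 of enterochromaffin cells changed by -5.35 ± 0.42 and the fatty acid receptor Ffar3 by -4.20 ± 0.38 in Vil1 villi. Serotonin genes other than Tph1 were mixed. In Vil1 villi 4 of 9 were lower, against 21.6% of all genes, and 3 were higher, against 3155 of 15107 tested genes. The serotonin transporter Slc6a4, which absorptive cells also express, changed by -1.49 ± 0.21, while Gch1, an enzyme for the cofactor of Tph1, rose by 0.77 ± 0.21.

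Along the crypt-villus axis of heterozygous mice the hormone genes did not move as 1 group. In Rosa26 heterozygotes 7 of 10 were higher in villi than in crypts (36.4% of all tested genes were) and 2 were lower (40.6%). Sct had the largest difference upward (2.82 ± 0.18), at 7.21, 9.46, 9.68, 10.8 and 11.3 CPM in crypts and 53.5, 57.6, 60.96, 76.2 and 90.6 CPM in villi, followed by Cck (2.25 ± 0.16) and Nts (2.04 ± 0.36). Gip (1.43 ± 0.21), Tph1 (0.96 ± 0.24), Pyy (0.92 ± 0.30) and Ghrl (0.85 ± 0.24) were also higher. Tac1 was lower in villi by the widest margin, at 0.223, 0.384, 0.645, 0.667 and 1.11 CPM against 12.6, 12.8, 15.2, 15.3 and 17.4 CPM in crypts (-4.61 ± 0.31), and Gcg was lower too, at 4.40, 4.87, 5.65, 6.13 and 6.34 CPM against 15.0, 23.6, 23.6, 34.3 and 44.9 CPM (-2.36 ± 0.27). The 2 enterochromaffin genes thus went opposite ways, with Tph1 higher and Tac1 lower in villi. The Pyy call was lost without the villi of replicate 4 (adjusted p = 0.0556). Sst did not pass (0.29 ± 0.16, 95% interval -0.03 to 0.61). Markers of gut region also differed between these villi and crypts. All 5 proximal markers were higher in villi, among them Slc40a1 (5.36 ± 0.55) and Pdx1 (3.41 ± 0.29). Of 5 distal markers 3 were lower, led by Fabp6 (-13.52 ± 1.03), and 2 were higher. In Vil1 heterozygotes 1 of 5 proximal markers was higher and 1 lower, and 2 of 5 distal markers were higher. The part of gut region in the hormone differences was not tested.

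In Vil1 heterozygotes 5 of the 10 were higher in villi (32.7% of all tested genes) and 2 lower (35.2%). Sct (2.99 ± 0.21), Nts (3.03 ± 0.44), Cck (1.71 ± 0.26), Tph1 (0.92 ± 0.15) and Gip (0.86 ± 0.28) were higher, and Tac1 (-2.43 ± 0.32) and Gcg (-2.03 ± 0.30) were lower. With the animal as a block Gip no longer passed (adjusted p = 0.051) and Pyy did (2.11, 0.0010). The progenitor factor Neurog3 stood at 0.0835 ± 0.103 against 5.41 ± 1.17 CPM (mean ± SD, n = 5 and 5) in villi against crypts of Rosa26 heterozygotes. In these mice 19 of 23 enteroendocrine transcription factors were lower in villi, against 40.6% of all tested genes. With Vil1 it was 17 of 23, against 35.2%. Of 21 granule genes tested in Rosa26 heterozygotes, 4 were higher in villi, among them Scg2 (1.77 ± 0.18), against 36.4% of all genes. Another 9 were lower, among them Rab3c (-2.80 ± 0.38), near the 40.6% of all genes. In Vil1 heterozygotes 8 of 21 were higher and 6 lower, against 32.7% and 35.2% of all genes.

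Per kilobase of gene length, Gip gave the largest part of the 10 genes' summed CPM in all tissue groups. It held 43.6% in heterozygous and 48.4% in homozygous Rosa26 crypts, and 56.4% and 45.8% in Vil1 villi. Gcg went from 9.21% to 4.68% in Rosa26 crypts, and Nts from 13.3% to 5.29% in Vil1 villi, while Sct went from 10.9% to 25.8% there. These shares are computed from group means and carry no test.

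In the first adult organoid set, 4-OHT lowered 6 of 9 tested hormone genes in flox/flox lines, against 17.2% of all tested genes called lower. Values are given for lines S6070, S6072 and S2080 in that order. Gcg stood at 13.9, 21.0 and 6.82 CPM with DMSO and 2.70, 2.73 and 0.310 CPM with 4-OHT (-2.86 ± 0.71, adjusted p = 0.019). Tac1 stood at 18.4, 21.8 and 15.9 against 4.74, 4.35 and 1.64 CPM (-2.39 ± 0.37, adjusted p = 0.0030), and Tph1 at 16.3, 17.4 and 9.74 against 3.58, 4.04 and 1.40 CPM (-2.27 ± 0.41). All 3 lines were lower with 4-OHT for each of these genes, and line S2080 was lowest in both conditions. Cck stood at 40.2, 50.8 and 21.7 against 13.3, 11.2 and 1.49 CPM (-2.12 ± 0.68, adjusted p = 0.047). Sct (-1.43 ± 0.40) and Gip (-1.18 ± 0.28) changed less. Sst (-1.94 ± 0.65, adjusted p = 0.054) and Ghrl (-0.83 ± 0.41, 0.162) missed the threshold, and with the line as a block, since the same lines were treated both ways, both passed (-2.04 with adjusted p = 0.0035, and -0.86 with 0.030). Nts stayed low in both conditions (0.719, 1.48 and 0.576 against 1.06, 0.977 and 1.43 CPM, 95% interval of the log2 change -0.47 to 1.08), and Pyy, with 13 and 5 reads in all, was not tested. Cck lost its call in 5 of 6 fits that each left out 1 library. Tuft markers summed to 3.41 to 5.90 CPM with 4-OHT and 21.8 to 24.9 CPM with DMSO, and goblet markers to 843 to 2673 and 5648 to 6476 CPM, and their part in the result was not tested. With only 3 lines a side, the count of called genes fell to 2 without the DMSO library of replicate 2, and was 3 when the A-485 libraries entered the fit.

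In the second organoid set, where all lines had 4-OHT, 5 of 9 tested hormone genes were lower in flox/flox than in flox/+ lines (24.3% of all tested genes) and 6 of 9 lower than in +/+ lines (23.5%). Flox/+ and +/+ lines did not separate: edgeR called none of the 9, none had an unadjusted p under 0.05, DESeq2 called none, and 0.0633% of all genes were called lower. Tac1 stood at 8.32, 8.42, 8.82 and 9.27 CPM in flox/flox, 18.2, 20.5, 26.7 and 27.7 in flox/+ and 17.0, 20.5, 24.1 and 24.6 in +/+ lines, and changed by -1.42 ± 0.15 and -1.31 ± 0.15. Tph1 stood at 5.73, 6.95, 7.15 and 8.08 CPM in flox/flox, 15.2, 18.8, 20.2 and 21.9 in flox/+ and 16.6, 18.4, 21.9 and 23.0 in +/+ lines, and changed by -1.45 ± 0.14 and -1.52 ± 0.14. The flox/flox lines were low and close together for both, and all 4 adjusted p lay at or under 6.04e-06. Gcg stood at 3.71, 4.28, 4.57 and 4.78 CPM in flox/flox, 6.54, 11.6, 27.4 and 29.5 in flox/+ and 12.4, 14.6, 15.8 and 21.2 in +/+ lines (-2.12 ± 0.44 and -1.88 ± 0.44). Cck stood at 4.95, 5.63, 8.71 and 8.97 CPM in flox/flox, 13.4, 14.7, 19.0 and 25.7 in flox/+ and 10.9, 12.4, 14.2 and 16.0 in +/+ lines (-1.36 ± 0.24 and -0.92 ± 0.24). Flox/+ lines were the most spread for Gcg. Sct passed in both comparisons (-1.10 ± 0.38 and -1.14 ± 0.38) and lost its call in 3 of 8 fits that each left out 1 library, among them that without flox/flox replicate 3, its lowest library. Ghrl passed against +/+ lines alone (-0.73 ± 0.28, adjusted p = 0.041; against flox/+ lines -0.66 ± 0.28, 0.063), in a call that 6 of 8 such fits lost. Gip, Sst and Nts passed in neither, with 95% intervals against flox/+ lines of -1.69 to -0.12, -4.12 to -0.29 and -1.92 to 0.47.

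Genes of hormone processing and endocrine fate followed in the organoids. In the first set 16 of 20 granule genes and 16 of 23 transcription factors were lower, against 17.2% of all tested genes. Neurog3 was among them (-2.86 ± 0.41), while Hhex, a factor of somatostatin cells, was higher at 4.72 ± 0.994 against 0.955 ± 0.308 CPM (2.32 ± 0.30). In the second set 24.3% of all tested genes were lower in flox/flox than in flox/+ lines. Of 20 granule genes 18 were lower, led by Syt13 (-2.85 ± 0.27). There 17 of 23 transcription factors were lower, and Pdx1 (2.46 ± 0.54), Hhex (2.40 ± 0.37) and Foxa1 were higher. Tuft markers summed to 6.71 to 11.1 CPM in flox/flox and 35.4 to 57.2 CPM in flox/+ lines, and goblet markers to 1826 to 2363 and 2209.7 to 3139.6 CPM, and their part in the result was not tested.

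**Figure D2:**
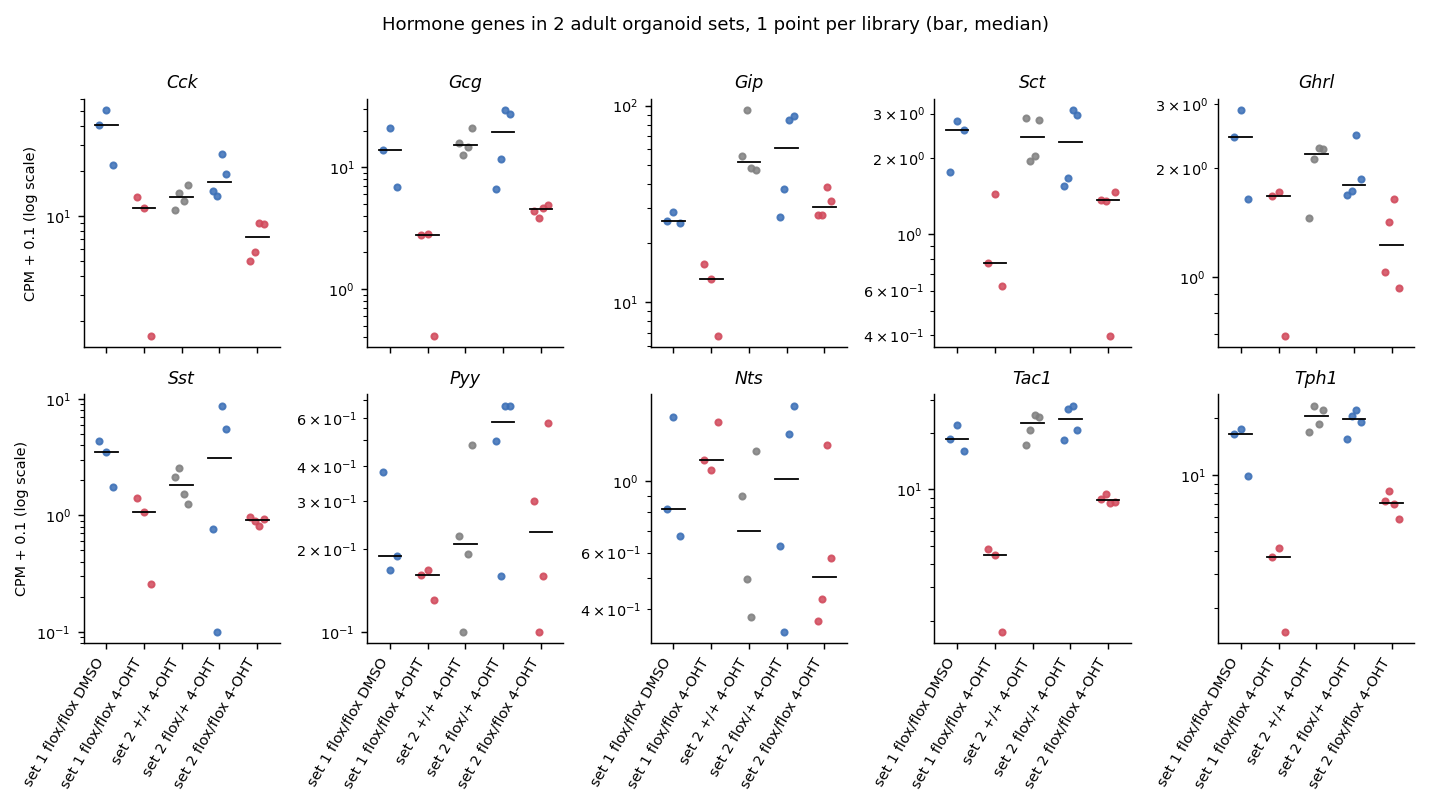
Levels of the 10 hormone genes in the first organoid set (flox/flox lines with DMSO or 4-OHT) and the second (+/+, flox/+ and flox/flox lines, all with 4-OHT), as CPM plus 0.1 on a log axis with 1 point per library, treated or control lines coloured by genotype and treatment (flox/flox with 4-OHT in red, +/+ in grey, the rest in blue) and a bar at the median. Tac1 and Tph1 separate flox/flox lines with 4-OHT from their controls in both sets, whereas the Nts points overlap.

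A-485 inhibits the catalytic activity of the histone acetyltransferases p300 and CBP, and it was given to organoids with intact Eif4g2. Of the 7 hormone genes abundant enough to test, 4 were lower at 3 µM (8.42% of all tested genes), 6 at 5 µM (25.1%) and 5 at 10 µM (32.6%). The 3 doses share the same 4 DMSO libraries. Values are given for lines S6026, S6070, S6074 and S6076 in that order. Gip stood at 29.7, 20.0, 49.99 and 51.9 CPM with DMSO and at 0, 0, 0.681 and 0 CPM with 3 µM, which is 1925 reads over the 4 DMSO libraries and 8 over the 4 treated ones, a 221-fold lower level with a 95% counting interval of 112 to 513. All 8 lay in line S6074. It kept 3 reads at 5 µM (662-fold, 227 to 3210) and 2 reads at 10 µM, all in line S6074. No other tested hormone gene was this low at the lowest dose.

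Tph1 and Tac1 fell in steps. Tph1 stood at 17.1, 16.8, 14.4 and 23.8 CPM with DMSO, 0.609, 1.57, 0.852 and 0 at 3 µM (-4.53 ± 0.61, adjusted p = 1.21e-04) and 0.182, 0.508, 0.291 and 0.0964 at 5 µM (-6.02 ± 0.68). Tac1 stood at 16.6, 18.4, 18.8 and 25.6 CPM with DMSO, 2.82, 3.39, 2.56 and 2.15 at 3 µM (-2.86 ± 0.54, adjusted p = 0.0017) and 0, 0.0846, 0.728 and 0 at 5 µM (-6.50 ± 0.69). Both had 0 reads in all 4 libraries at 10 µM, which, with 3 reads over the group as the floor, is at least 318-fold lower for Tph1 and at least 350-fold lower for Tac1. The floor and intervals cover counting error only.

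Cck and Gcg also fell by dose. Cck stood at 29.8, 13.4, 32.5 and 34.0 CPM with DMSO, 4.19, 7.43, 10.9 and 2.35 at 3 µM (-2.14 ± 0.67, adjusted p = 0.034), 0, 0, 0.728 and 1.64 at 5 µM (-5.62 ± 0.84) and 0, 0, 0.265 and 0 at 10 µM, where 4 reads were left in all. Its call at 3 µM was lost in 6 of 8 fits that each left out 1 library. Gcg stood at 45.0, 5.75, 11.5 and 19.5 CPM with DMSO, 7.24, 0.413, 4.77 and 4.10 at 3 µM, 3.57, 0.254, 0.655 and 0.964 at 5 µM and 0.430, 0, 0.331 and 0 at 10 µM. It missed the threshold at 3 µM (-2.30 ± 0.81, adjusted p = 0.058) and passed with the line as a block (-2.32, 0.0066), and all 4 lines were lower. It passed at 5 µM (-3.85 ± 0.88) and 10 µM (-6.58 ± 1.09). Line S6026, the Eif4g2(+/+) line, had the highest Gcg at every dose.

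Sct passed at no dose and Ghrl at 1 dose. Sct stood at 2.08, 2.48, 2.02 and 2.17 CPM with DMSO and at 0.215, 1.07, 0.663 and 1.11 CPM with 10 µM, and its log2 changes of -1.49, -1.56 and -1.52 with rising dose did not pass, with adjusted p from 0.154 to 0.273. With the line as a block it passed at 10 µM (-1.64, 0.035). Ghrl stood at 0.847, 0.160, 1.86 and 2.94 CPM with DMSO, 1.45, 1.32, 0.596 and 0 at 3 µM and 0.143, 0, 0.928 and 0 at 10 µM. It passed at 5 µM (-3.43 ± 1.32, adjusted p = 0.039), in a call that 5 of 8 fits without 1 library lost and that the blocked fit, whose filter dropped it, could not make, and at 10 µM with the block only (-2.62, 0.037). Levels of both were near 1 CPM, so that these libraries of 8652040 to 16436145 reads held few reads of them. Sst, Pyy and Nts were untested. Sst stood at 2.39, 0.0799, 5.98 and 9.52 CPM with DMSO, had 2 reads in all at 3 µM and 0 at 5 and 10 µM, at least 78.5-fold and 79.3-fold lower than the DMSO mean. Pyy was largely that of 1 line, S6026, at 3.47, 0, 0 and 0.232 CPM with DMSO and 0 reads at 10 µM (at least 16.3-fold lower). Nts had 24 reads with DMSO and 6, 6 and 3 with rising dose.

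The summed CPM of the 10 genes ran from 77.04 to 169.9 with DMSO, 8.60 to 22.4 at 3 µM, 2.20 to 7.02 at 5 µM and 1.00 to 2.32 at 10 µM. Per kilobase, Gip went from 49.5% of the 10 genes' sum to 2.22% at 3 µM, and Cck from 18.9% to 42.7%. At 10 µM Sct made up 69.6% of what was left. At 3 µM 2 of 22 enteroendocrine transcription factors passed the test, against 10.8% of all genes called higher and 8.42% lower, and both were higher, Foxa1 (0.58 ± 0.14) and Rfx3 (0.48 ± 0.17, adjusted p = 0.0499). Of 20 granule genes at that dose, 1 was lower, the chromogranin Chgb at 29.8 ± 15.1 against 348 ± 55.1 CPM (-3.55 ± 0.32), and 2 were higher, the processing enzymes Pam (1.66 ± 0.20) and Cpe (0.92 ± 0.25). Both lists were thus near the shares of all genes at this dose. At 5 µM 16 and at 10 µM 17 of 22 transcription factors were lower, against 25.1% and 32.6% of all genes. At 10 µM Neurog3 stood at 0.0862 ± 0.102 against 14.1 ± 3.54 CPM (-7.09 ± 0.99). Pam and Cpe remained higher at 10 µM (2.85 ± 0.20 and 1.71 ± 0.25).
Goblet markers summed to 4203 to 6207 CPM with DMSO, 6705 to 14440.1 at 3 µM and 229 to 543 at 10 µM, and tuft markers to 49.4 to 58.0, 8.99 to 17.8 and 1.72 to 4.54 CPM. Their part in the hormone changes was not tested.

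**Figure D3:**
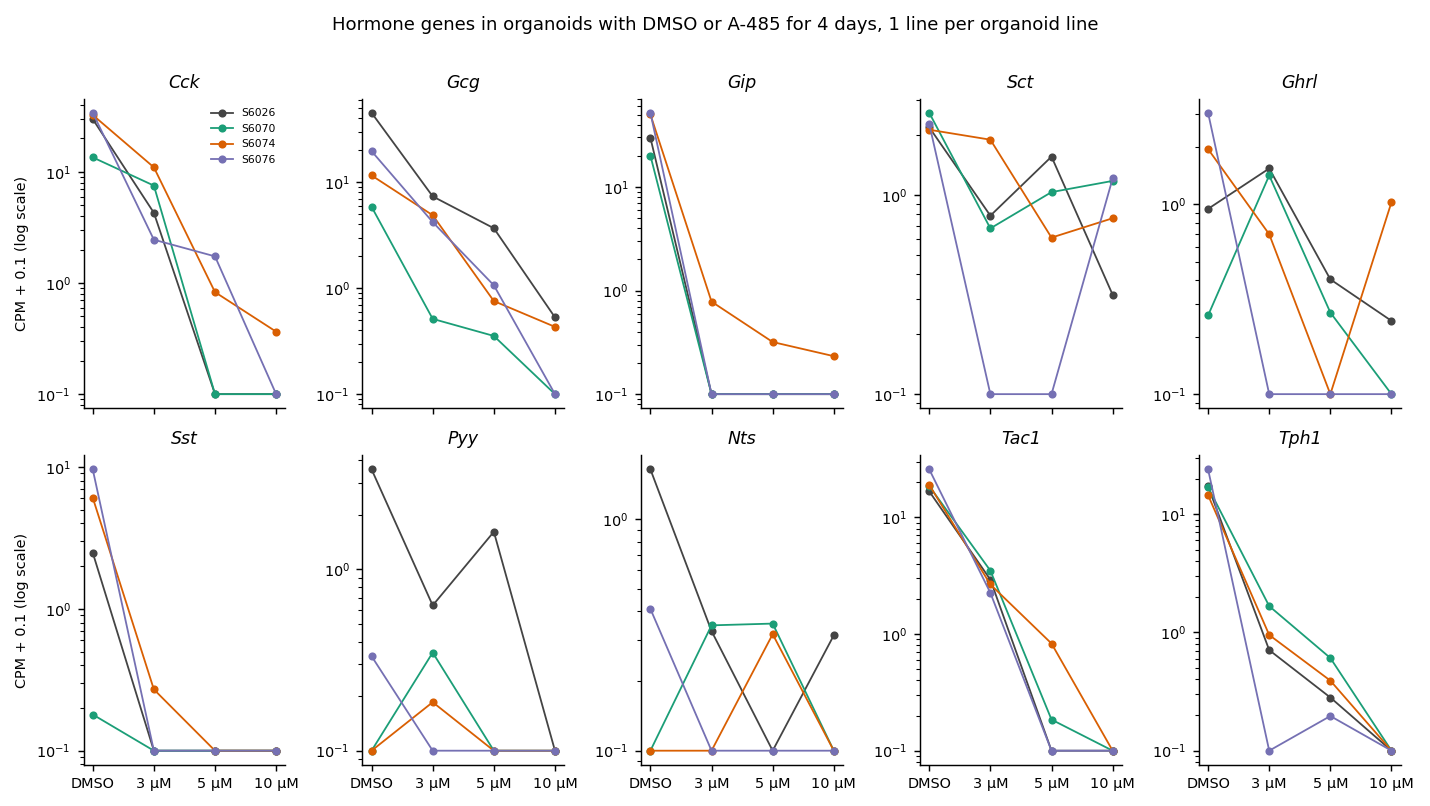
Levels of the 10 hormone genes in 4 organoid lines with DMSO or 3, 5 or 10 µM A-485 for 4 days, as CPM plus 0.1 on a log axis with 1 joined line per organoid line. Gip sits at or near the floor of the axis from 3 µM, Tac1 and Tph1 step down to it by 10 µM, and Sct stays above it in most libraries.

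Fetal spheroids, which are immature cultures grown from fetal intestine, differed widely from each other in hormone content. Gcg with DMSO ran from 0 to 257 CPM across the lines, and Pyy from 0.0438 to 27.0 CPM. In flox/flox lines Gcg was 138 in S9484-D, 0.526 in S9488-F, 201 in S9484-A, 7.77 in S9488-D, 0.745 in S9488-H and 5.46 in S9020-A, and in flox/+ lines 0 in S9488-I, 2.30 in S9612-J, 0 in S9612-G, 213 in S9612-A and 257 in S9020-C. Lines S9484-D, S9484-A, S9612-A and S9020-C were thus high in both genotypes, and the same 4 lines had the highest Pyy and Nts. Whether lines with a shared number come from 1 litter is not given in the labels used here.

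In flox/flox spheroids 4-OHT lowered 3 of 10 hormone genes, Ghrl, Tac1 and Tph1, against 10.0% of all tested genes. Tac1 with DMSO ran from 6.90 through a median of 23.1 to 36.5 CPM and with 4-OHT from 0 through a median of 0.504 to 5.86 CPM, with no overlap (-3.98 ± 1.21, adjusted p = 0.026). Tph1 ran from 4.12 through a median of 14.2 to 28.9 CPM and from 0.258 through a median of 1.04 to 4.83 CPM (-3.23 ± 1.10, adjusted p = 0.045), and Ghrl from 0.932 through a median of 2.30 to 3.82 CPM and from 0.228 through a median of 0.602 to 0.878 CPM (-1.97 ± 0.58, adjusted p = 0.020). All 6 lines were lower with 4-OHT for each of the 3 genes. The count was 1 without the 4-OHT library of replicate 2 or 6 and 5 without that of replicate 3. The Tph1 call was lost in 9 and the Tac1 call in 2 of 12 fits that each left out 1 library.

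The same lines were grown with DMSO and with 4-OHT, and with the line as a block 8 of the 9 hormone genes its filter kept were lower, against 17.1% of all genes in the blocked fit. The blocked fit, which held only the flox/flox libraries, added Gcg (-3.56, adjusted p = 0.0051), Cck (-4.43, 0.022), Sct (-3.27, 0.019), Nts (-1.84, 0.026) and Sst (-3.57, 0.033). Gcg with 4-OHT was 11.2 in S9484-D, 0 in S9488-F, 47.6 in S9484-A, 0 in S9488-D, 0 in S9488-H and 0.516 in S9020-A, lower than with DMSO in 6 of 6 lines, and Cck and Sct were also lower in 6 of 6. Nts and Sst were lower in 5 of 6. Gip, lower in 5 of 6 lines, was 3.24 in S9484-D, 1.53 in S9488-F, 4.69 in S9484-A, 11.2 in S9488-D, 5.59 in S9488-H and 2.62 in S9020-A with DMSO and 0.670 in S9484-D, 0 in S9488-F, 5.12 in S9484-A, 0.853 in S9488-D, 5.12 in S9488-H and 0.103 in S9020-A with 4-OHT, and passed in neither fit.

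In flox/+ spheroids 4-OHT changed no hormone gene by edgeR's test: none of the 10 was called, none had an unadjusted p under 0.05, DESeq2 called none, and 0.0% of all genes were called lower. Intervals were wide with 5 lines, as for Tac1 (-2.80 to 1.72) and Gcg (-4.78 to 3.31) on the log2 scale. The same fit did not call Eif4g2 itself, at a mean of 506 CPM with 4-OHT and 888 CPM with DMSO (-0.81 ± 0.24). It could thus miss changes of that size in a hormone gene. Tac1 and Sst were lower in 5 of 5 lines and Tph1 in 4 of 5, without passing. Compared between genotypes, flox/flox and flox/+ spheroids with DMSO had no called hormone gene (0.0% of all genes lower; none of the 10 with an unadjusted p under 0.05, none by DESeq2), and with 4-OHT edgeR also called none, against 6.13% of all genes lower, while 5 of the 10 had an unadjusted p under 0.05 and DESeq2 called 3. The effect of 4-OHT did not differ between genotypes for any hormone gene without the block (0.971% of all genes lower; 2 of 10 with an unadjusted p under 0.05, none by DESeq2). With the line as a block 6 were more negative in flox/flox lines, against 10.1% of all genes in that fit: Tph1 (-2.78, adjusted p = 7.15e-04), Tac1 (-4.26, 0.0081), Pyy (-2.56, 0.017), Gcg (-3.42, 0.042), Cck (-3.76, 0.042) and Sct (-3.19, 0.043). Without the block, 14 of 23 transcription factors and 8 of 21 granule genes were lower with 4-OHT in flox/flox spheroids, against 10.0% of all genes. Scgn led the granule genes (-5.10 ± 1.18). Goblet markers summed to 192 to 1725 CPM with 4-OHT and 3135 to 18644 CPM with DMSO in these lines, and their part in the result was not tested.

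**Figure D4:**
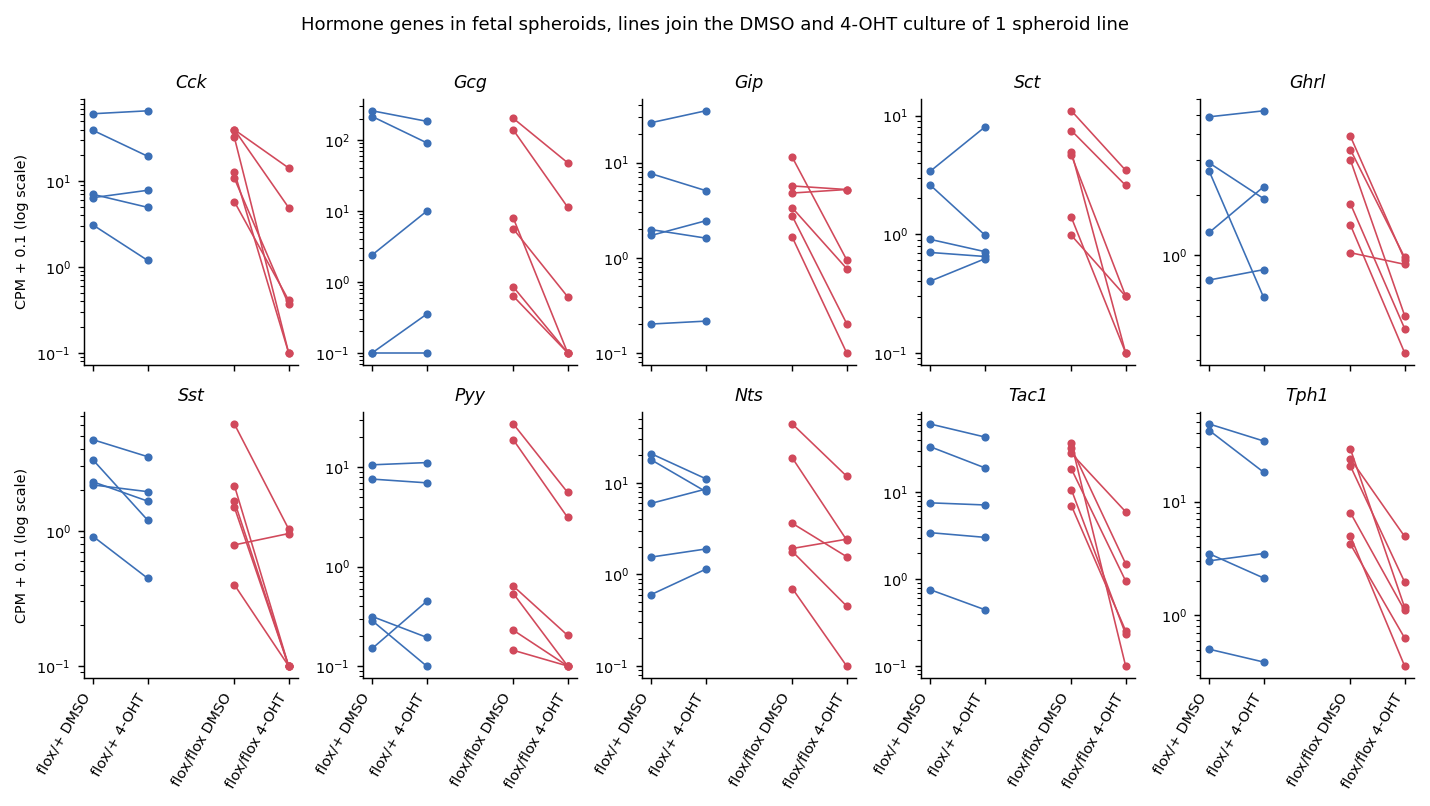
Levels of the 10 hormone genes in fetal spheroids as CPM plus 0.1 on a log axis, where each joined pair is the DMSO and 4-OHT culture of 1 line, flox/+ in blue and flox/flox in red. Flox/flox lines slope downward for Tac1, Tph1 and Cck in 6 of 6 lines, whereas flox/+ lines start from levels that differ widely and slope less steeply for Tac1.

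Between adult and fetal cultures of the same genotype and treatment (flox/+, 4-OHT) edgeR called 1 of the 10 hormone genes and DESeq2 called 2. Nts was higher in spheroids, at 1.04, 1.79, 7.95, 8.43 and 11 CPM against 0.241, 0.528, 1.30 and 1.61 CPM in organoids (2.80 ± 0.80, adjusted p = 0.017; 25.1% of all tested genes were higher). Gip stood at 0.115, 1.51, 2.34, 4.99 and 35.0 CPM in spheroids and 27.1, 37.5, 84.2 and 88.1 CPM in organoids (-2.62 ± 1.14, adjusted p = 0.088), and Pyy at 0, 0.0944, 0.346, 6.85 and 11 against 0.0602, 0.396, 0.563 and 0.566 CPM (3.29 ± 1.56, adjusted p = 0.111). Per kilobase of the group means, Gcg held 42.1% of the 10 genes' sum in flox/+ spheroids with 4-OHT, carried by 2 of the 5 lines (0, 0.249, 9.77, 91.1 and 183 CPM), and Gip led in flox/+ organoids (64.2%). The foregut and duodenal factor Pdx1 stood at 26.6 ± 11.7 against 1.29 ± 0.503 CPM (mean ± SD, n = 5 and 4) in spheroids against organoids (4.47 ± 0.48). Among stroma markers Col1a1 (7.64 ± 1.92), Col1a2 (10.42 ± 3.21) and Col3a1 (10.99 ± 2.79) were higher in spheroids, and Vim was not called (-0.07 ± 0.53). The part of these in the hormone differences was not tested.

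**Figure D5:**
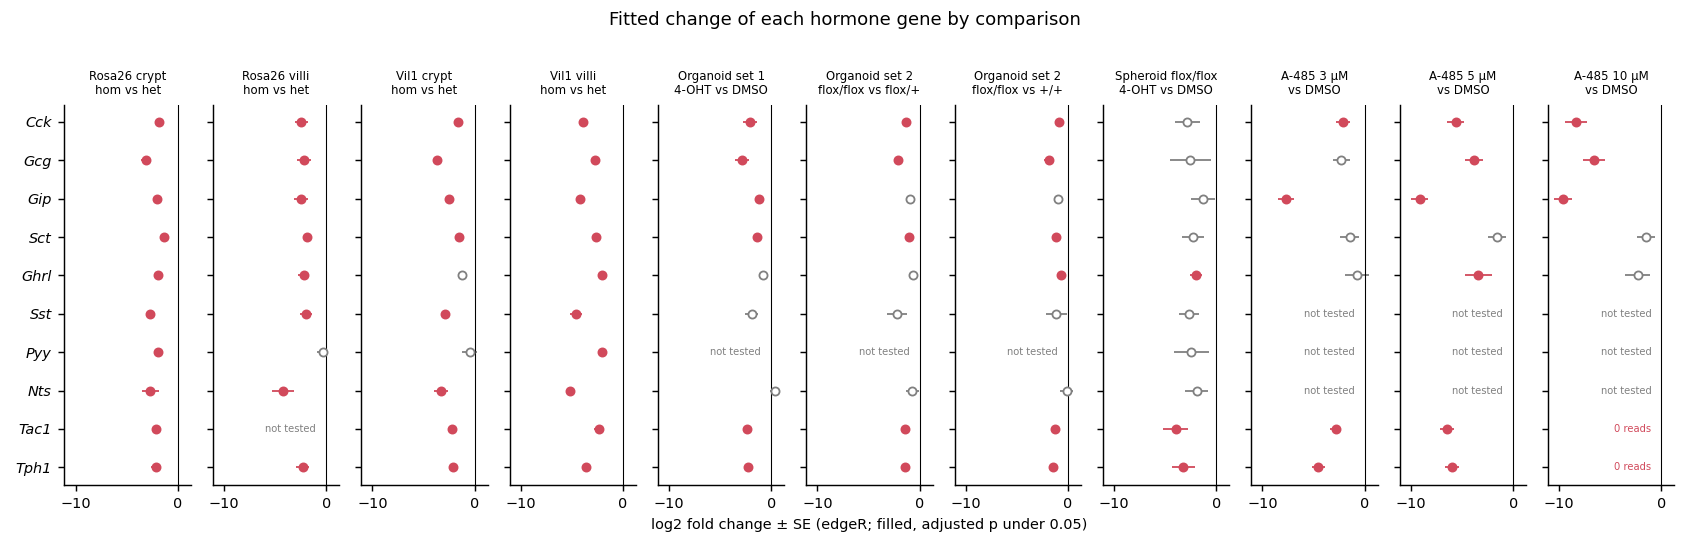
Fitted log2 fold change ± SE of each hormone gene in 11 comparisons, with filled red points for genes called by edgeR at an adjusted p under 0.05 and open grey points for the rest. Genes left out by the low-count filter are written as not tested, and Tac1 and Tph1 at 10 µM A-485 as 0 reads. All points but Nts in the first organoid set lie left of 0, with the widest changes for Gip under A-485.

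Across the 4 count tables, the genes whose levels most resembled each hormone gene were found by the mean over tables of Pearson's r of log2(CPM + 1), among 11535 genes with a mean of at least 1 CPM in every table. The libraries share genotypes, treatments and depth, so r is a description. Cck was closest to the granule gene Scg2 (mean r 0.954), to Tph1 (0.927) and to Pipox (0.898). Tph1 was closest to Afp (0.950), Cck (0.927) and Gip (0.915), and Gip to Tph1 (0.915), Fbp1 (0.891) and Afp (0.887). Sst was closest to Afp (0.827), Tph1 (0.818) and Scg2 (0.809). Gcg was closest to the granule GTPase gene Rab3c (0.877), Gnao1 (0.875) and the sodium channel gene Scn3a (0.863). Tac1 was closest to the Paneth cell defensin gene Defa24 (0.923), the colipase gene Clps (0.920) and Gfra3 (0.918), a gene of the enteroendocrine receptor list. Sct was closest to Hadh (0.844), Cndp1 (0.834) and Tmem86b (0.832). Ghrl, Pyy and Nts fell under the minimum level in at least 1 table.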

How the data were processed

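The authors deposited raw read counts per gene from poly(A), strand-marking (dUTP) libraries, per the labels' protocols, in 4 tables. Reads were aligned with HISAT2 2.0.5 to GRCm38 (mm10), per the submitters' processing notes; the counting program is not given in the sources used here. Multi-copy or antisense overlap of the hormone genes could therefore not be resolved. Libraries grown in WENR medium were not used here.

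The 10 members and all gene lists were chosen with earlier results of these data known. Groups come from the labels. Counts were tested as deposited with edgeR 4.0.16 (R 4.3.3): low-count filter by group, TMM scaling, quasi-likelihood F-test, Benjamini-Hochberg adjustment over all tested genes, and a call at an adjusted p under 0.05. The fits were tested on simulated data. DESeq2 1.42.0, other scalings, no filter, a replicate block, a Y-linked covariate and leaving out each library were alternatives. Levels are TMM-scaled CPM within a set. List genes were named where past the threshold with the largest changes and a mean of at least 1 CPM, and likeness was ranked over log2(CPM + 1). Intervals are 95%, and the floor for groups at 0 reads is 3 reads over the group. Promoters are RefSeq windows of GRCm38.p6.

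Pairing was checked as the correlation of same-numbered samples' deviations from their group means. The same line was treated both ways in the first organoid set (0.318 to 0.501), the A-485 set (0.056 to 0.321) and the flox/flox (0.385 to 0.783) and flox/+ (0.626 to 0.857) spheroids, and crypts and villi came from the same heterozygous animals (-0.002 to 0.164 with Rosa26, 0.048 to 0.296 with Vil1). Blocked values are printed where they changed a call. A blocked fit of a pair of groups held only matched libraries of that pair. Main fits of the A-485, second organoid and spheroid sets held all groups of the set, so filter and spread differ there too.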

Additional observations from a re-analysis of the deposited data

Results flagged for a closer look

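In groups of 4 to 10 libraries, 13 of 134 sets of a gene and a group held a library farther from the rest than Dixon's 95% limit, where chance gives about 1 in 20. Of these, 5 belong to the spheroid line S9484-A (flox/flox, 4-OHT), which was the highest of its group for Cck (14.2 CPM, next 4.82), Gcg (47.6, next 11.2), Nts (11.7, next 2.32), Tac1 (5.86, next 1.41) and Tph1 (4.83, next 1.86). Another 4 belong to the flox/+ spheroid line S9020-C, highest with 4-OHT for Cck (66.0 CPM, next 19.4), Gip (35.0, next 4.99) and Sct (7.87, next 0.888), and with DMSO for Gip (26.3, next 7.55). The flox/flox spheroid line S9488-D had the highest Sst with DMSO (6.05 CPM, next 2.06). In Rosa26 homozygous villi, replicate 5 had 4.15 CPM of Gcg (next 0.786). In the second organoid set, +/+ replicate 2 had 94.8 CPM of Gip (next 55.1) and flox/flox replicate 3 had 0.297 CPM of Sct (next 1.26).

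The genotype effect in villi differed from that in crypts of Vil1 mice, by edgeR's interaction test without a block, for Cck (-2.26 on the log2 scale), Gip (-1.70), Tph1 (-1.51) and Sct (-1.12), all more negative in villi. Crypts and villi came from the same mice. With the animal as a block Gip (adjusted p = 0.069) and Sct (0.085) were no longer called. Nts was then called (-2.01, 0.023), and so was Gcg with the opposite sign (1.33, 0.016).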

How the results depend on the processing

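With a Y-linked covariate 6 hormone genes were called in Rosa26 crypts. Without the low-count filter 4 were called in Rosa26 villi and 1 in flox/flox spheroids, and with the A-485 libraries in the fit 3 in the first organoid set. DESeq2 called 3 between genotypes of spheroids with 4-OHT, 2 between spheroids and organoids, and 1 in the Rosa26 interaction. With the line as replicate block 8 were called in flox/flox spheroids and 6 in the spheroid interaction, and with the animal as block Tac1 turned to 0.36 in the Vil1 interaction. Beside the calls given in the report, including Ghrl at 5 µM A-485, which the blocked filter dropped, the block changed none, save where numbers are shared only by name: same-numbered deviations correlated at 0.037 to 0.599 in Rosa26 crypts, -0.164 to 0.254 in Rosa26 villi, -0.034 to 0.191 in Vil1 crypts, -0.103 to 0.115 in Vil1 villi, -0.187 to 0.16 in the second organoid set, and -0.357 to 0.489 (4-OHT) and -0.466 to 0.51 (DMSO) between spheroid genotypes. There a block lost Nts in Rosa26 (adjusted p = 0.0541) and Vil1 crypts (0.126), Sct against flox/+ (0.123) and Ghrl against +/+ organoids (0.0863), and gained Sst against +/+ (0.0315).

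Leaving out 1 library at a time, the number of called genes was 2 to 7 for the first organoid set, 1 to 5 in flox/flox spheroids, 0 to 2 between spheroid genotypes with 4-OHT, 1 to 3 between spheroids and organoids and 0 to 1 in the Rosa26 interaction. Uncalled log2 changes that crossed 0 were Pyy in Vil1 crypts (-0.81 to 0.34), Nts against +/+ organoids (-0.79 to 0.26), Sct between spheroid genotypes with 4-OHT (-1.90 to 0.67), Ghrl along the Vil1 axis (-0.01 to 0.36), Tac1 in the Vil1 interaction (-0.39 to 0.14), Gip in the spheroid interaction (-2.93 to 0.46), and, between spheroids and organoids, Cck (-0.97 to 0.55), Sct (-1.62 to 0.28) and Ghrl (-0.34 to 0.55). The cause of these shifts was not tested. Depth limits Ghrl, Pyy, Nts and Sst, which had few reads in several organoid groups.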
